A study of Mus musculus with 6 samples.

Results

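Heat shock proteins and chaperones help other proteins to fold, keep unfolded proteins from clumping and pass damaged ones on for disposal. Genes were taken as members where their only symbol in the array's annotation began with Hspa to Hspe, Hsp90 or Hsph, with Dnaja, Dnajb or Dnajc, or was Cct2 to Cct8, Tcp1, Bag1 to Bag6, Hsf1 or Hsf2. This gave 79 of the 13146 genes with such a probe set. They comprise 12 Hsp70 and Hsp110 genes, 2 Hsp90 genes, 40 J-domain genes, 8 cytosolic chaperonin subunits and 2 mitochondrial chaperonin genes. The others are 6 small heat shock proteins, 8 Bag genes and other cofactors, and 1 heat shock factor. The rule reads gene symbols only, but it was written with earlier results of these data known. Hsf1 and Hsp90ab1 were not analysed here.

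Expression was measured on Affymetrix Mouse430_2 arrays in 3 leukemia and 3 wild-type samples of Lin-/Sca1-/cKit+ cells, a sorted fraction that lacks lineage markers and Sca1, carries the receptor Kit and in marrow holds committed myeloid progenitors. The leukemia cells came from the spleens of lethally irradiated MF1 mice that had been transplanted with progenitors transduced with AE9a, a truncated AML1-ETO fusion protein, and the wild-type cells from the bone marrow of MF1 mice. All mice were 12 to 16 weeks old, and 200 ng of total RNA was labelled per array. Leukemia cannot be told apart from the spleen as source, nor from irradiation, transplantation and transduction, which are described for the leukemia samples only. Each leukemia sample is from 1 numbered mouse, whereas the wild-type labels speak of mice, so several animals may have been pooled. A p-value here covers no more than the spread between these samples. The labels give no marker that separates transplanted cells from cells of the irradiated host.

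Hsp70 proteins bind short greasy stretches of unfolded clients and let go of them in a cycle driven by ATP. J-domain proteins bring the clients and start that cycle, and nucleotide exchange factors such as the Bag proteins and Hsp110 end it. Hsp90 and the ring-shaped chaperonins complete the folding of chosen clients, kinases and steroid receptors for Hsp90, actin and tubulin for the cytosolic chaperonin. Heat shock factor switches on the genes of the cytosol when unfolded proteins build up there, and the unfolded protein response does so for the endoplasmic reticulum.

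Promoter windows from RefSeq (build GRCm38.p6, from 250 bases before to 50 bases after the annotated start) are shown for genes on which the results turn, since they carry the 2 response elements searched for. Capitals mark the matches. The ER stress element was searched as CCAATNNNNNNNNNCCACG and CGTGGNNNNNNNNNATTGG, its form on the other strand. The heat shock element was searched as 3 alternating units, GAANNTTCNNGAA and TTCNNGAANNTTC. Hspa5, the main Hsp70 of the endoplasmic reticulum, lies at chr2:34771840-34772139 on the plus strand and has its match 65 bases before the start. Hsp90b1, the Hsp90 of the same compartment, lies at chr10:86705395-86705694 on the minus strand with matches 212 and 107 bases before the start. Dnajc3, a J-domain protein of that compartment, lies at chr14:118937682-118937981 on the plus strand with a match 105 bases before the start.
Hspa5: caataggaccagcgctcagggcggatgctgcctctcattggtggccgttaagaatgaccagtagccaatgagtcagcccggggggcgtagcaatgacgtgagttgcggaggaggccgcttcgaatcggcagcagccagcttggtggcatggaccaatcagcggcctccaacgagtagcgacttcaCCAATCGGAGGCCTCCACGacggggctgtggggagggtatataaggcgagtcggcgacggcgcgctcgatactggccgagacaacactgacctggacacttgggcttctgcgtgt
Hsp90b1: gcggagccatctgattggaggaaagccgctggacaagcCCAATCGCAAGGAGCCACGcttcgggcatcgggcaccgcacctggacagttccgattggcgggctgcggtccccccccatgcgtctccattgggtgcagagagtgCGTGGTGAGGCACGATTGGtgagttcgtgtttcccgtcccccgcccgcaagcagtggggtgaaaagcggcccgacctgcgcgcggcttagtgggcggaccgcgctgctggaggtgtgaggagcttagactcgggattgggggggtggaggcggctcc
Dnajc3: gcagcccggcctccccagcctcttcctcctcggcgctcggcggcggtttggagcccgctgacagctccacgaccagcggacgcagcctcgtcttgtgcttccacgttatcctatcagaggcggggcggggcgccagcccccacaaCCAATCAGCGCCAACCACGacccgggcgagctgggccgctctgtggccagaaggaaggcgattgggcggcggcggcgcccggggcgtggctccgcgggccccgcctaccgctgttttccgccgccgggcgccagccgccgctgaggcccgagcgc

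Hsph1, the heat-inducible Hsp110, has a heat shock element 15 bases after an annotated start, in the window at chr5:149636266-149636565 on the minus strand. The element lies 36 bases after another annotated start of Hsph1. The window of Hspe1, the lid of the mitochondrial chaperonin, at chr1:55087898-55088197 on the plus strand holds 2 overlapping matches, 89 and 84 bases before the start. Hspd1, the barrel of that chaperonin, is read off the other strand, and the same stretch lies 144 and 139 bases before an annotated start of Hspd1. The window of another annotated start of Hspd1, at chr1:55088194-55088493, holds no match.
Hsph1: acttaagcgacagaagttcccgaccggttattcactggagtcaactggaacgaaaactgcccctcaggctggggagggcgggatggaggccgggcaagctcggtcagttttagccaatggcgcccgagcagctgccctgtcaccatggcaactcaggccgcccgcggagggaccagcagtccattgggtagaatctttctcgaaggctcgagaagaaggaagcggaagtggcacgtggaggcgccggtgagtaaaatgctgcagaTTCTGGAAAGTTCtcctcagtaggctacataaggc
Hspe1: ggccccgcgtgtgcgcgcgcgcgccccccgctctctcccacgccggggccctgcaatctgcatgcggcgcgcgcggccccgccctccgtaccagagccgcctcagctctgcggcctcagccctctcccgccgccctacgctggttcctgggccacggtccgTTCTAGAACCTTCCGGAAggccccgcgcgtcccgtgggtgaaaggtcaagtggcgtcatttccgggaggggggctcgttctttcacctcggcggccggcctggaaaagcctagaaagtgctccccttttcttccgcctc

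The heat shock element was found in the windows of 4 of the 65 members that have one (6.15%), namely Dnajb6, Hspd1, Hspe1 and Hsph1, against 179 of 27025 genes with a window (0.662%). Dnajb6, a J-domain protein that keeps aggregation-prone proteins apart, did not pass at -0.09 (adjusted p = 0.663, groups overlapping), while the other 3 fell. The ER stress element was found in 3 members (4.62%), namely Hspa5, Hsp90b1 and Dnajc3, against 37 genes (0.137%). A match is a run of letters and not a shown binding site. No exact match was in the windows of Hspa1a, Hspa1b, Dnajb1 and Bag3.

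Most chaperone genes that differed were lower in leukemia, and most of them by less than 2-fold. Of the 79 members, 67 reached the 40th percentile of probe sets of the array in question on 3 or more arrays and were tested, and 12 were dim and left out. In limma across all 9715 genes tested, 31 of the 67 passed an adjusted p of 0.05, against a background of 42.1% of all genes. Of these, 26 were lower in leukemia (38.8% of the members, background 25.2%) and 5 were higher (7.46%, background 16.9%). The 26 include Hspa1b and Dnajc15, which entered the test through their wild-type values. The groups did not overlap in 37 of the 67 (background 59.2%), the 31 called genes among them. The median log2 change, here always leukemia minus wild-type, was -0.17 over the members and -0.09 over all genes tested. Of the called members, 6 changed at least 2-fold, of which Dnaja4 and Hspb6 were higher and Dnajc15, Hspa1b, Dnajb2 and Hsph1 were lower. The number lower was 17 without wild-type array 1 and 15 without wild-type array 3, and the number higher was 3 without wild-type array 3. Of all genes, 29.3% passed without wild-type array 1 and 27.2% without wild-type array 3.

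The counts by class, and those of the lists further on, are to be read against the 25.2% of all genes that fell and the 16.9% that rose. Among Hsp70 and Hsp110 genes 6 of 10 tested fell and 1 rose, with a median change of -0.32. The 6 include Hspa1b, which entered the test through its wild-type values. Of the 2 Hsp90 genes 1 fell, and both mitochondrial chaperonin genes fell. Of the cytosolic chaperonin subunits 4 of 8 fell, with a median of -0.18. J-domain genes were mixed. In class A 3 of 4 fell and 1 rose, in class B 3 of 8 fell and 1 rose, and in class C 4 of 24 fell and 1 rose, with a median of -0.02 and equal numbers of genes above and below 0. Of the Bag genes and other cofactors 3 of 7 fell. Of the small heat shock proteins only 2 were tested, and 1 rose. Set together, Hsp70, Hsp90 and the chaperonins had 13 of 22 lower and 1 higher, and all J-domain genes had 10 of 36 lower (27.8%) and 3 higher. Both sides shrank without wild-type array 3, where 27.2% of all genes passed. The J-domain genes then had 6 lower and 1 higher, Hsp70 and Hsp110 5 lower and the cytosolic chaperonin 1 lower, and the call of Hspd1 was lost. The difference between classes was not tested.

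**Figure D1:**
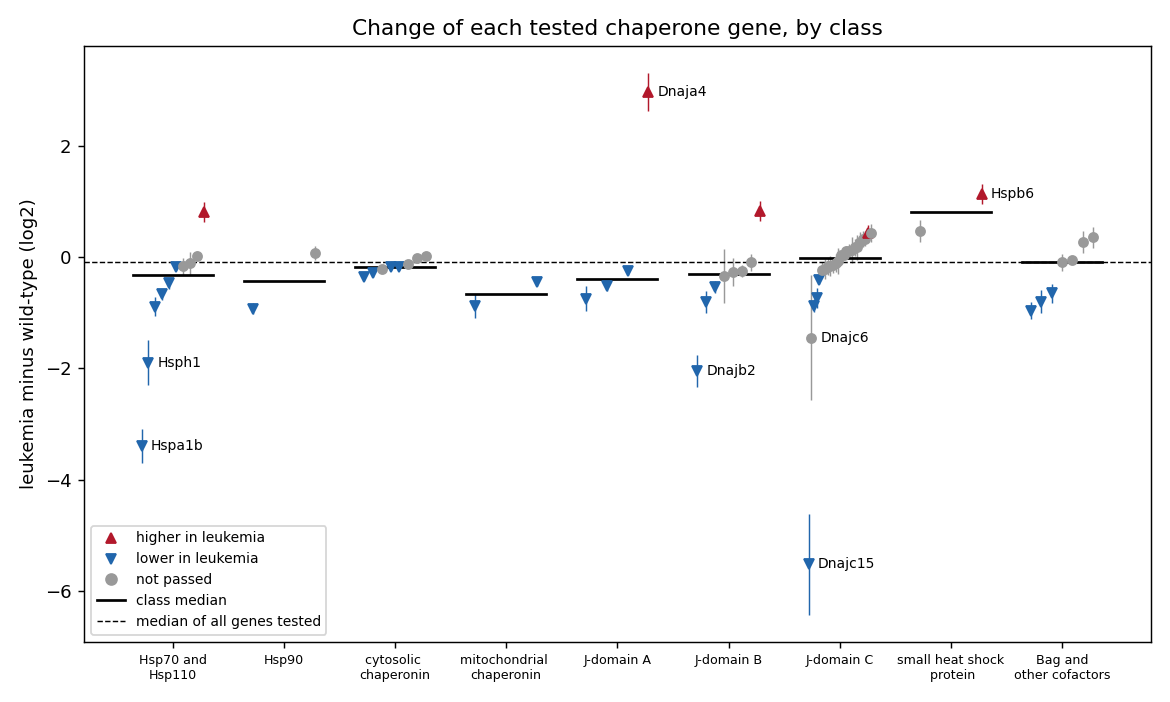
Change of each of the 67 tested chaperone genes, grouped by class, as log2 of leukemia over wild-type; points are genes with their standard error, thick bars class medians and the dashed line the median of all genes tested. Most classes sit a little below 0, and Dnajc15, Hspa1b, Dnajb2, Hsph1 and Dnaja4 stand furthest out.

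The arrays differ in ways that touch these values. Pearson's r over probe sets was 0.969 to 0.978 within leukemia, 0.992 to 0.994 within wild-type and 0.902 to 0.925 between the groups, and the median SD of the tested members was 0.18 in leukemia and 0.096 in wild-type. The 18S control signal was 12.35, 11.25 and 11.14 on the leukemia arrays against 9.41, 8.18 and 7.77 on the wild-type arrays (log2, exact permutation test, two-sided p = 0.1, the smallest that 3 against 3 allows). The difference between 3' and 5' Gapdh probe sets was higher in leukemia by 0.23 (exact permutation p = 0.1), and that for Actb by 0.028 (exact permutation p = 0.9). Arrays with the same hybridization entry in the array records were taken as 1 fluidics run. On that reading leukemia array 1 shared a run with the wild-type arrays, and the other leukemia arrays had a run of their own. Leukemia array 1 was the lowest leukemia array in 31 of the 67 tested members (46.3%), against 43.3% of all genes tested. Among the 26 members called lower it was the lowest in 18 (69.2%). That share was not taken for all genes called lower. A block for the run sets leukemia array 1 alone against the wild-type arrays, with its spread taken to be that of the other arrays. It gave 24 members lower and 11 higher, 35 of 67 in all, against 52.8% of all genes (32.0% lower, 20.9% higher), so the members' count is near the background there. The part of these features in the results was not tested. Median intensity per array ran from 71.6 to 79.9, and the number of arrays, 6, limits the precision.

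Markers of several cell types differed between the groups. Where a marker lay below the 40th percentile on all arrays of its lower group, it entered the test through the other group and had to differ. This holds for Mpo, Elane, Plac8, Csf1r, Ighm, Cd68, C1qa, C1qb and Pecam1, dim in leukemia, and for Alas2 and Slc4a1, dim in wild-type. Markers of granulocyte-monocyte progenitors were lower in leukemia in 6 of 6 genes, with a summed intensity of 144 to 223 on the leukemia arrays and 33334 to 41492 on the wild-type arrays, and 4 of the 6 lay below the 40th percentile on every leukemia array. Kit itself was 9.76, 9.81 and 9.34 in leukemia and 10.42, 10.42 and 10.35 in wild-type. Of 5 measured erythroid markers 2 rose, Alas2 by 3.87 and Slc4a1 by 3.16. Klf1 (-0.45), Epor (0.17) and Tfrc (-0.61, leukemia lower without overlap) did not pass. The summed intensity of the 5 was 2829 to 6844 in leukemia and 4632 to 6927 in wild-type. Of 5 measured B and plasma cell markers 1 fell (Ighm, by 4.69), with sums of 138 to 349 in leukemia and 739 to 1464 in wild-type, and Jchain and Ms4a1 were dim. Macrophage markers summed to 128 to 169 in leukemia and 455 to 612 in wild-type (3 of 4 tested lower), endothelial and stromal markers to 77.4 to 111 and 415 to 523 (2 of 2 lower), and T and NK cell markers to 193 to 229 and 2151 to 2758 (Nkg7, the 1 tested, lower). In sorted bulk RNA, fewer cells of a type and less RNA per cell cannot be told apart, and the part of cell type in the chaperone results was not tested.

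The heat-inducible genes of the cytosol and mitochondria are the classic targets of heat shock factor. Of the 9 tested, 8 were lower in leukemia and 0 higher (background 25.2% and 16.9%), with a median change of -0.54. The 8 include Hspa1b, which entered the test through its wild-type values. They also include the constitutive Hspa8, whose call was lost in 10 of 17 alternatives. The list holds 11 members, of which Hspa1a and Hspb1 were dim. Between 6 and 8 fell under each alternative of processing.

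Hspa1b, the stress-inducible Hsp70, had the widest gap of this list. Its probe set gave 4.40, 4.60 and 4.87 in leukemia arrays 1, 2 and 3 and 8.67, 7.74 and 7.65 in wild-type arrays 1, 2 and 3, as log2 intensity in the same order from here on. The groups lay far apart, and all 3 leukemia values were below the 40th percentile of their arrays, so the gene entered the test through its wild-type values and had to differ. The measured change was -3.39 ± 0.30 (SE, adjusted p = 0.0002), and -2.76 when 16 was added to the intensities before the log. With leukemia values raised to that percentile, Hspa1b was at least 6.08-fold lower in leukemia. The 2 other probe sets gave -3.39 and -3.10. Hspa1a, its near-identical neighbour, was dim at 4.03, 3.93 and 4.13 in leukemia and 5.90, 5.50 and 5.0 in wild-type. Its groups did not overlap either, with a difference of -1.43 (exact permutation p = 0.1). Probes of such close copies can take up signal from each other, so how the fall splits between the 2 genes is uncertain.

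Hsph1 was at 8.38, 9.81 and 9.98 in leukemia and 11.55, 11.09 and 11.23 in wild-type. Every leukemia array was below every wild-type array, and leukemia array 1 lay well below the other two. The change was -1.90 ± 0.40 (SE, adjusted p = 0.00935), 3.72-fold lower in leukemia, and its second probe set gave -2.49. Without leukemia array 1 the change was -1.39 (adjusted p = 6.42e-04). With the fluidics run block it was -2.90.

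Hspa8, the constitutive Hsp70 that every cell uses, was among the brightest signals on the arrays, at the 99.2 percentile of probe sets in leukemia and the 99.3 percentile in wild-type. It measured 12.29, 12.39 and 12.45 in leukemia and 12.60, 12.48 and 12.59 in wild-type. The gap between the groups was narrow, the change was -0.18 ± 0.06 (adjusted p = 0.0489), and the call was lost in 10 of 17 alternatives, among them the omission of leukemia array 1 or 2 or any wild-type array (adjusted p = 0.0529 to 0.157). Its 3 other probe sets gave larger falls, of -0.52, -0.40 and -1.03. Hsp90aa1, the inducible cytosolic Hsp90, was at 12.24, 12.52 and 12.52 in leukemia and 12.57, 12.31 and 12.18 in wild-type. These values overlap, and the change of 0.07 ± 0.12 did not pass (adjusted p = 0.639), while a further bright probe set gave -0.18 without overlap.

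The J-domain partners and the Bag factor of the heat shock response fell by less than 2-fold. Dnaja1, a farnesylated partner of Hspa8, was at 10.40, 10.45 and 10.53 in leukemia and 11.04, 10.83 and 11.06 in wild-type (change -0.52, adjusted p = 0.00338). Dnajb1, the Hsp40 induced with Hsp70, was at 10.35, 10.30 and 10.45 in leukemia and 11.08, 10.71 and 10.92 in wild-type (change -0.54, adjusted p = 0.00728). Bag3, which links Hsp70 to selective autophagy, was at 6.66, 6.65 and 6.88 in leukemia and 7.80, 7.56 and 7.71 in wild-type, a change of -0.96 ± 0.15 (adjusted p = 0.00221). The groups did not overlap for any of these 3 genes. The call for Dnajb1 was lost when its probe sets were averaged (-0.37, adjusted p = 0.0961). Wild-type array 1 was the highest wild-type array in 8 of the 11 heat-inducible members (72.7%), against 22.9% of all genes tested.

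**Figure D2:**
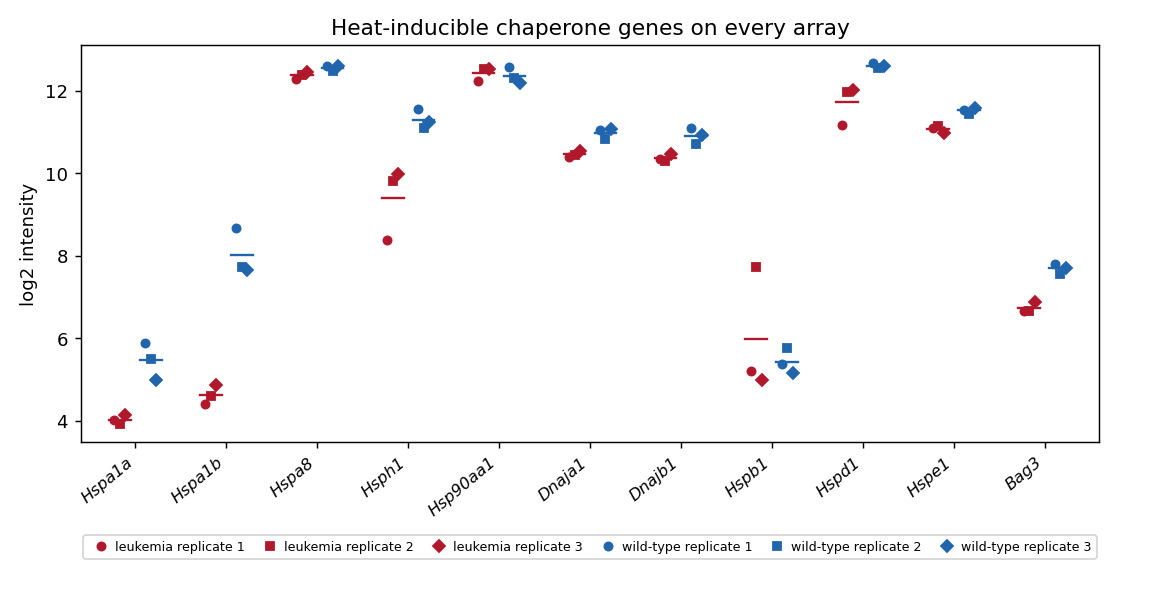
Log2 intensity of the 11 heat-inducible chaperone genes on each of the 6 arrays, leukemia in red and wild-type in blue, with a line at each group's mean and a marker shape for each replicate. Hspa1b and Hsph1 show the widest gaps, Hspa8 a narrow one and Hsp90aa1 none, and Hspb1 is high on leukemia array 2.

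Heat shock factor 2 (Hsf2), the 1 factor among the members, was dim on all arrays at 3.36, 3.69 and 3.62 in leukemia and 3.79, 3.71 and 3.48 in wild-type, which overlap (exact permutation p = 0.5). Co-chaperones of the cytosol outside the member rule were followed through a list of 15, of which 13 were tested. Of these 8 fell and 1 rose (background 25.2% and 16.9%), with a median change of -0.62. The immunophilins Fkbp5 (-2.27, adjusted p = 0.0012) and Fkbp4 (-1.31, adjusted p = 0.00492), which ride on Hsp90 with steroid receptors, fell most, and Unc45a, a myosin chaperone, rose by 0.39 (adjusted p = 0.0419).

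In the endoplasmic reticulum 5 of 10 members fell and 1 rose (background 25.2% and 16.9%), with a median change of -0.40. Hspa5, whose promoter carries the ER stress element shown above, measured 11.83, 12.20 and 12.17 in leukemia and 12.46, 12.59 and 12.56 in wild-type. The groups did not overlap, and the change of -0.47 ± 0.10 (adjusted p = 0.0102) is 1.38-fold. Hsp90b1, with 2 such elements, measured 9.99998, 10.22 and 10.17 in leukemia and 10.90, 11.18 and 11.08 in wild-type. All leukemia values were lower, by 1.90-fold in the mean (change -0.93 ± 0.10, adjusted p = 5.39e-04). Its second probe set, dimmer by over 2 log2 units in wild-type, pointed the other way (0.50, groups overlapping), and the mean of both gave -0.21 with an adjusted p of 0.398.

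Hspa13, a microsomal Hsp70 relative without the client-binding domain, measured 7.72, 8.31 and 7.95 in leukemia and 8.86, 8.83 and 8.97 in wild-type (change -0.89, adjusted p = 0.00581). The call was lost with its probe sets averaged (-0.19, adjusted p = 0.474). Dnajc10, a J-domain protein that reduces disulfide bonds, measured 9.26, 8.95 and 9.21 in leukemia and 9.93, 10.07 and 10.03 in wild-type (change -0.87, adjusted p = 0.00108). The groups did not overlap, and its call held in all 17 alternatives, as did that of Hspa5. Dnajb9, an inducible partner of Hspa5, measured 7.82, 7.46 and 7.28 in leukemia and 8.26, 8.12 and 8.59 in wild-type (change -0.81, adjusted p = 0.0152), and was -0.67 without wild-type array 3 (adjusted p = 0.0639) and -0.51 with the fluidics run block (adjusted p = 0.0845). Dnajb11, the partner that hands clients to Hspa5, did not pass at -0.25 (adjusted p = 0.119). Dnajc3, which carries the same promoter element as Hspa5, did not pass at -0.07 with its brightest probe set (adjusted p = 0.836). A probe set of about the same brightness gave -0.69 and a further one -1.03, both without overlap, so the probe sets of Dnajc3 disagree.

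Dnajb12, a J-domain protein in the membrane of the endoplasmic reticulum that helps to clear misfolded membrane proteins, was the 1 member of this compartment that rose. It measured 7.40, 7.26 and 6.82 in leukemia and 6.37, 6.33 and 6.29 in wild-type. Every leukemia array was above every wild-type array, with a change of 0.83 ± 0.19 (adjusted p = 0.0114) and 0.77 from its second probe set. Without wild-type array 3 it was 0.81 with an adjusted p of 0.0501.

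Folding genes of the endoplasmic reticulum outside the member rule were followed as a list. Of 12 listed, 11 were tested, and 9 fell and 0 rose in limma (background 25.2% and 16.9%). All 11 changes were below 0 and the median was -0.89. Sdf2l1, a component of the chaperone complex around Hspa5, fell by 1.43 (adjusted p = 0.00346), and the disulfide isomerase Pdia6 by 1.14 (adjusted p = 0.00139). Of 7 regulators of the unfolded protein response 1 fell and 1 rose, with a median of 0.25. Ern1, the sensor that splices Xbp1, fell by 1.16 (adjusted p = 0.0315), while Ddit3, the late transcription factor of the response, rose by 0.80 (adjusted p = 0.00976).

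**Figure D3:**
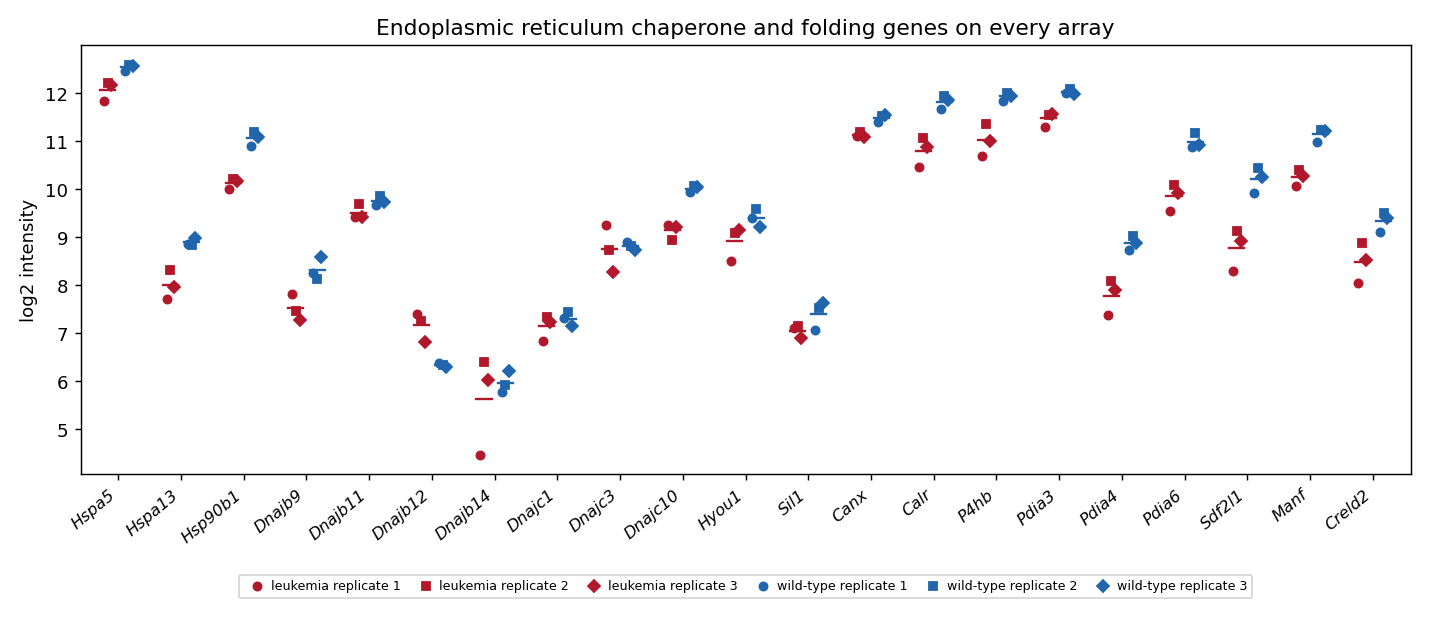
Log2 intensity of the 10 endoplasmic reticulum members (Hspa5 to Dnajc10) and the 11 tested folding genes outside the member rule (Hyou1 to Creld2) on each of the 6 arrays, leukemia in red, wild-type in blue, line at the group mean. Leukemia lies below wild-type in most genes, and Dnajb12 is the 1 gene with all leukemia arrays above.

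In mitochondria 6 of the 7 measured members fell and 0 rose (background 25.2% and 16.9%), with a median change of -0.74. The 6 include Dnajc15, which entered the test through its wild-type values. The count of lower members was 3 without wild-type array 1 or without wild-type array 3. Hspa9, the Hsp70 that pulls imported proteins into the matrix, measured 10.13, 10.45 and 10.43 in leukemia and 11.02, 10.97 and 11.02 in wild-type. The groups were well apart at -0.66 ± 0.10 (adjusted p = 0.00218), and the call held in all 17 alternatives.

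Hspd1, whose promoter window overlaps that of Hspe1, measured 11.17, 11.97 and 12.01 in leukemia and 12.66, 12.55 and 12.60 in wild-type. Leukemia array 1 was far below the other leukemia arrays, which were themselves below all wild-type arrays. The change was -0.88 ± 0.21 (adjusted p = 0.0157), and without leukemia array 1 it was -0.61 (adjusted p = 2.41e-04). Leaving out wild-type array 1, 2 or 3 gave -0.86, -0.91 and -0.89 with adjusted p-values of 0.057, 0.051 and 0.0553. Hspe1 measured 11.09, 11.15 and 10.97 in leukemia and 11.54, 11.43 and 11.59 in wild-type, with a change of -0.45 ± 0.07 (adjusted p = 0.00325). Both partners of the mitochondrial chaperonin thus lay lower in leukemia, 1.85-fold for Hspd1 and 1.37-fold for Hspe1.

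Dnajc15, a J-domain protein of the inner membrane that works at the import motor and restrains the respiratory chain, had the widest gap of all members. Its single probe set gave 2.78, 6.49 and 3.11 in leukemia and 9.65, 9.66 and 9.62 in wild-type. The wild-type arrays were nearly equal, while leukemia array 2 lay far above the other leukemia arrays. The measured change was -5.52 ± 0.91 (adjusted p = 0.00324) and ran from -6.87 to -4.38 over the alternatives. Leukemia arrays 1 and 3 were below their 40th percentile, so the gene entered the test through its wild-type values. With these 2 arrays raised to that percentile, Dnajc15 was at least 14.7-fold lower in leukemia.

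Dnaja3, the J-domain partner of Hspa9, measured 7.89, 8.65 and 8.53 in leukemia and 9.08, 8.90 and 9.32 in wild-type (change -0.75, adjusted p = 0.0345). Dnajc11, found with the complex that shapes the inner membrane folds, measured 8.11, 8.74 and 8.64 in leukemia and 9.31, 9.10 and 9.28 in wild-type (change -0.74, adjusted p = 0.0167). Neither call held without wild-type array 1 or 3 (adjusted p = 0.065 to 0.125), nor did that of Dnaja3 without wild-type array 2 (adjusted p = 0.0606) or with probe sets averaged (-0.44, adjusted p = 0.0617). Leukemia array 1 was again the lowest in both, as in 5 of the 7 mitochondrial members. Dnajc30, which binds the ATP synthase, did not pass at 0.17 (adjusted p = 0.391). Dnajc19, a further import gene, is met only by probe sets that also carry the symbol of its pseudogene, and the brightest of these gave 10.32, 9.89 and 10.06 in leukemia and 9.72, 9.47 and 9.78 in wild-type. These values lie the other way, higher in leukemia by 0.43, as do those of another (0.45), while the dimmest gave -0.65, and they were not tested.

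Of 6 mitochondrial chaperones and proteases outside the member rule 3 fell and 0 rose in limma (background 25.2% and 16.9%). Their median was -0.36. The protease Lonp1 fell by 0.84 (adjusted p = 0.00145), and Trap1, the Hsp90 of mitochondria, also by 0.84 (adjusted p = 5.13e-04). Grpel1, Grpel2 and Clpx were between -0.04 and 0.13 and did not pass.

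**Figure D4:**
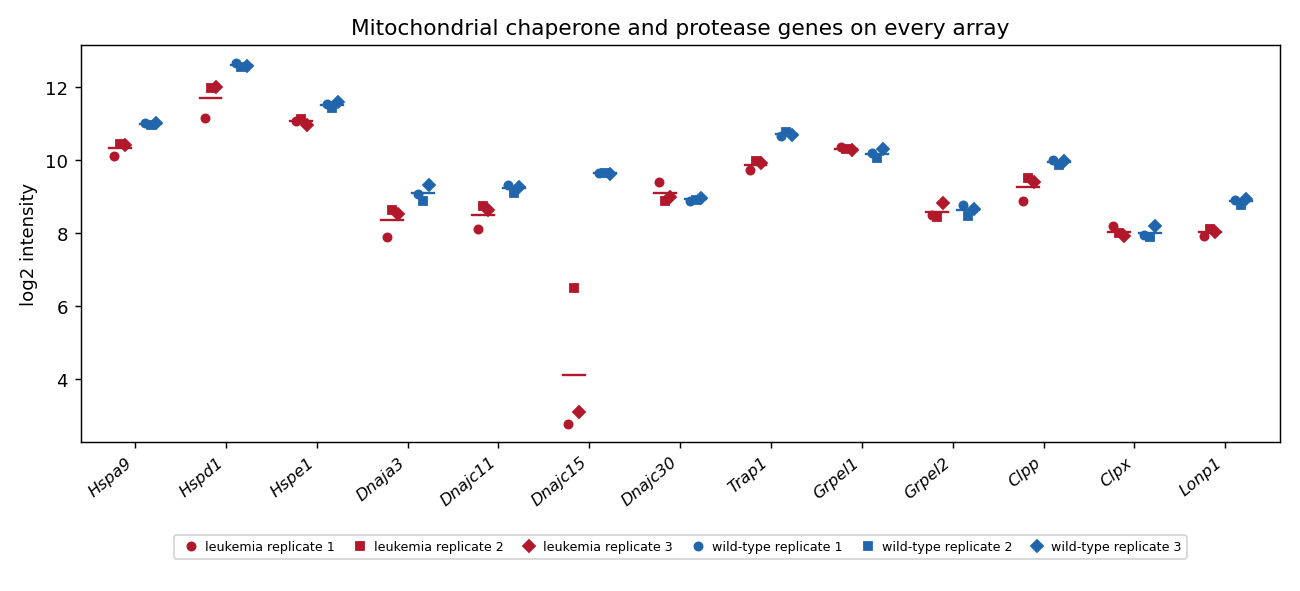
Log2 intensity of the 7 mitochondrial members (Hspa9 to Dnajc30) and 6 further mitochondrial chaperone and protease genes (Trap1 to Lonp1) on each of the 6 arrays, leukemia in red, wild-type in blue, line at the group mean. Dnajc15 spans 2.78 to 6.49 on the leukemia arrays and is nearly constant on the wild-type arrays.

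The cytosolic chaperonin, a double ring of 8 different subunits, changed little. All subunits were bright, with Tcp1 at the 99.1 percentile of probe sets in both groups, and the changes lay between -0.36 and 0.02. Cct6a measured 11.59, 11.74 and 11.71 in leukemia and 12.06, 11.98 and 12.07 in wild-type, a change of -0.36 ± 0.06 (adjusted p = 0.00345) that held in all 17 alternatives. Cct8 (-0.28, adjusted p = 0.0324), Cct5 (-0.18, adjusted p = 0.0312) and Cct4 (-0.18, adjusted p = 0.0442) passed more narrowly. Cct7 at -0.21 and Cct3 at -0.13 did not pass although their groups did not overlap. The probe sets of Cct3 disagree, since an equally bright one gave 0.19 and a further one -0.69, both without overlap. The one at 0.19 passed (adjusted p = 0.0258) where probe sets ending in s or x were set aside. Cct2 at -0.02 and Tcp1 at 0.02 did not pass, with adjusted p-values of 0.798 and 0.748. Cct6a alone passed after median centring, without the intensity trend, with the replicate block, or without leukemia array 2 or any 1 wild-type array (adjusted p of Cct4, Cct5 and Cct8 without an array up to 0.141). Prefoldin, which delivers actin and tubulin to this chaperonin, had 1 of 6 subunits lower (Pfdn2, -0.48, adjusted p = 0.0172), 0 higher and a median of -0.06.

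Beyond these compartments the largest J-domain changes were in single genes. Dnaja4, a cytosolic class A protein, rose most of all members. It measured 9.02, 10.01 and 9.75 in leukemia and 7.04, 6.04 and 6.78 in wild-type. The groups were wide apart, and the change of 2.97 ± 0.34 (adjusted p = 6.23e-04) is 7.84-fold. Its other probe sets gave 2.55 and 3.28, and the call held in all 17 alternatives. The 3 other class A genes fell, with Dnaja1 as above, Dnaja3 among the mitochondrial members and Dnaja2 at 11.02, 10.95 and 10.98 in leukemia and 11.25, 11.15 and 11.29 in wild-type (change -0.25, adjusted p = 0.0198). For Dnaja2 a further bright probe set gave 0.39, and the call was lost with probe sets averaged (-0.10, adjusted p = 0.425) and without leukemia array 2, wild-type array 1 or wild-type array 3 (adjusted p = 0.0501 to 0.0897).

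Dnajb2, a J-domain protein with ubiquitin-binding motifs that passes clients to the proteasome, measured 4.83, 5.66 and 5.42 in leukemia and 7.50, 6.89 and 7.67 in wild-type. The groups did not overlap, and the change of -2.05 ± 0.29 (adjusted p = 0.00167) is 4.14-fold. Dnajc2, which sits on the ribosome, measured 10.06, 10.22 and 10.13 in leukemia and 10.50, 10.54 and 10.59 in wild-type (change -0.41, adjusted p = 0.00574). This direction rests on the brightest probe set, since the mean of its probe sets gave 0.085 (adjusted p = 0.58). Dnajc5, the cysteine string protein of secretory vesicles, rose, with 10.11, 9.68 and 9.79 in leukemia and 9.46, 9.29 and 9.52 in wild-type (change 0.44, adjusted p = 0.0394). It did not pass without leukemia array 3 or any 1 wild-type array (0.37 to 0.49, adjusted p = 0.0608 to 0.129).

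Dnajc6, the auxilin that strips clathrin from vesicles, showed the widest spread among leukemia arrays. It measured 9.45, 8.43 and 4.61 in leukemia and 9.01, 8.96 and 8.87 in wild-type, an SD of 2.55 in leukemia and 0.07 in wild-type. Leukemia array 1 was above all wild-type arrays and leukemia array 3 far below them, and the change of -1.45 ± 1.12 did not pass (adjusted p = 0.33). The other class C genes that did not pass lay between -0.23 (Dnajc21) and 0.44 (Dnajc13, adjusted p = 0.0684).

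Among the remaining Hsp70 genes Hspa2, the form abundant in testis, rose. It measured 7.84, 7.68 and 8.04 in leukemia and 6.79, 7.04 and 7.31 in wild-type, without overlap, a change of 0.81 ± 0.18 (adjusted p = 0.012). Hspa4, Hspa4l and Hspa14, relatives that act as exchange factors or at the ribosome, did not pass at 0.02, -0.11 and -0.16 with their brightest probe sets. Others disagree without overlap, at -0.99 for Hspa4 and at 0.98 and 1.09 for Hspa4l. Hspa12a was dim.

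Of the small heat shock proteins, which hold unfolded clients without ATP, Hspb6 rose. It measured 7.45, 7.31 and 7.73 in leukemia and 6.44, 6.15 and 6.50 in wild-type, a change of 1.14 ± 0.18 (adjusted p = 0.00251) or 2.20-fold, and the call held in all 17 alternatives. Hspb11, a protein of ciliary transport despite its name, was at 6.46, 6.70 and 6.16 in leukemia and 5.79, 5.99 and 6.12 in wild-type (change 0.47, adjusted p = 0.0883). The other 4 were dim, and of these Hspb1, the widely expressed heat-inducible form, was at 5.21, 7.73 and 5.0 in leukemia and 5.39, 5.76 and 5.16 in wild-type. Its groups overlap, and only leukemia array 2 stands above.

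**Figure D5:**
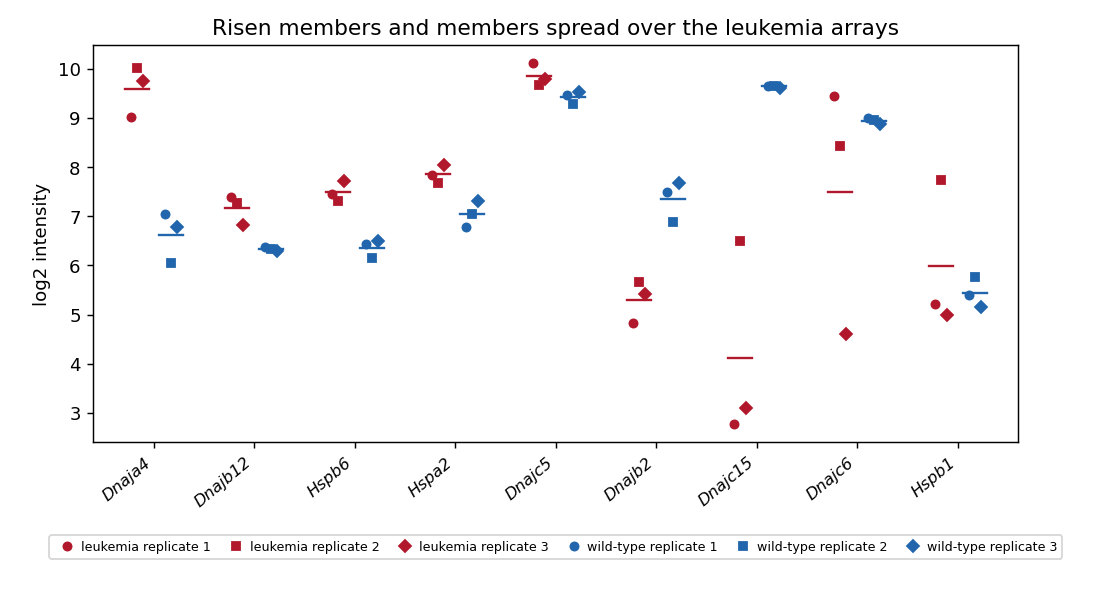
Log2 intensity on each of the 6 arrays of the 5 members that rose (Dnaja4, Dnajb12, Hspb6, Hspa2, Dnajc5) and of 4 others with wide gaps or a wide spread in leukemia (Dnajb2, Dnajc15, Dnajc6, Hspb1), leukemia in red, wild-type in blue, line at the group mean. Dnajc15, Dnajc6 and Hspb1 each have 1 leukemia array far from the others.

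The Hsp70 exchange factors split. Bag6, which guides membrane proteins of the tail-anchored kind and defective chains to their fate, measured 8.23, 8.26 and 8.27 in leukemia and 8.59, 9.25 and 9.33 in wild-type. The leukemia arrays were nearly equal and all lower, with a change of -0.80 ± 0.20 (adjusted p = 0.0186). It was -0.71 and -0.66 without wild-type arrays 2 and 3 (adjusted p = 0.0747 and 0.0739) and -0.82 with the fluidics run block (adjusted p = 0.0537). Hspbp1, an exchange factor that also holds back ubiquitination by Stub1, measured 7.91, 8.38 and 8.49 in leukemia and 8.95, 8.83 and 8.93 in wild-type (change -0.65, adjusted p = 0.0211), and -0.62 to -0.68 without any 1 wild-type array (adjusted p = 0.0587 to 0.0766). Bag1, Bag2, Bag4 and Bag5 did not pass, with changes between -0.10 and 0.35.

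Genes of the early response to handling and growth signals, followed as a list because they too are induced by stress, lay the other way. Of 8 tested 6 rose and 0 fell in limma (background 16.9% and 25.2%), with a median change of 1.92. Jun, part of the AP-1 factor, was at 10.39, 7.29 and 7.22 in leukemia and 5.97, 5.70 and 5.16 in wild-type (change 2.69, adjusted p = 0.0363), and Dusp1, a phosphatase of MAP kinases, at 11.10, 8.77 and 9.0 in leukemia and 6.93, 7.31 and 6.90 in wild-type (change 2.58, adjusted p = 0.0118). Both were highest on leukemia array 1, the array on which Hsph1 and Hspd1 were lowest, and their part in the chaperone results was not tested.

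Where a called gene had further bright probe sets, their direction was mostly the same. Of 36 such probe sets for 20 called genes 32 had the sign of the one used, and the 4 others belong to Dnaja2, Dnajc2, Hsp90b1 and Hspa13. Of the 36 tested members that did not pass, 20 had further bright probe sets, 35 in all. Of these 35, 15 had groups that did not overlap, 10 lower and 5 higher in leukemia. Over all genes tested, by the brightest probe set, 59.2% had groups that did not overlap. The 15 belong to Cct3, Cct7, Dnajc1, Dnajc3, Dnajc14, Dnajc16, Dnajc17, Hsp90aa1, Hspa4 and Hspa4l. A call held under all 17 alternatives in 14 of the 31 genes. These were Hspa1b, Hsph1, Hspa9, Hspa5 and Hspa2 among the Hsp70 and Hsp110 genes, Dnaja1, Dnaja4, Dnajb2, Dnajc10 and Dnajc15 among the J-domain genes, and Cct6a, Hspe1, Hspb6 and Bag3. For Hspa1b and Dnajc15, which entered the test through the wild-type arrays, this is no sign of stability.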

How the data were processed

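The deposited table holds intensity values on a linear scale for 28821 probe sets, and per the submitters' processing notes the authors used RMA, whose version and settings are not given in the sources used here. The test had been chosen for log2 values, so log2 was taken with nothing added. All 6 value columns were mapped to samples (0 columns not mapped). The array run records gave 2 hybridization entries, here taken as 2 fluidics runs, and 1 chip lot.

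Only the 23750 probe sets with 1 symbol in the platform annotation were named, 175 of them of members. Per gene the probe set with the highest mean log2 value was used, and levels are not compared between genes, except as percentiles of all probe sets on an array. Symbols of all 79 members matched the RefSeq table of GRCm38.p6. Genes that reached the 40th percentile of an array on 3 or more arrays were tested with limma 3.58.1 (R 4.3.3). The model had group alone and 4 residual degrees of freedom, eBayes used an intensity trend, tests were two-sided, and p-values were adjusted after Benjamini and Hochberg over the 9715 genes with a threshold of 0.05. Single values were compared by exact permutation tests (scipy 1.17.1, Python 3.11.15), and figures drawn with matplotlib 3.10.9. SE is the standard error of the change.

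The members and all lists were chosen with earlier results of these data known, so no list is independent support. Array values were planned for 13 fixed genes where measured and for up to 3 rises and 3 falls per class, and from other lists up to 2 rises and 2 falls. Beyond this plan they are given for Dnajc2, Dnajc6, Hspb1, Hspb11 and a probe set of Dnajc19. Other members named were free to choose. Simulated data were used to test the fit, with 200 of 9715 genes changed between leukemia and wild-type. There 71% of genes changed by 1 and 95% of those changed by 2 (log2) were recovered, with 7 false calls. Genes were drawn independently and with the same spread in both groups. In the data leukemia had the wider spread and 4089 genes were called, so these rates need not hold there. Alternatives covered the filter, the probe set rule, normalization, 16 added before the log, the variance trend, array weights, a block for the fluidics run or for the replicate number, and leaving out each array. Motifs were searched as exact letters.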

Additional observations from a re-analysis of the deposited data

Results flagged for a closer look

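Hspb1, a small heat shock protein that was too dim to be tested, stood out on 1 array. Leukemia array 2 read 7.73 (log2 intensity) while the other leukemia arrays read 5.21 and 5.0 and the highest wild-type array 5.76. Its second probe set gave 4.78, 7.57 and 4.81 in leukemia and 4.74, 4.95 and 4.80 in wild-type. It was singled out because the signal lies outside the main comparison and above the level of the wild-type arrays. Leukemia array 2 was also the highest leukemia array for Dnajc15, at 6.49. The cause was not tested.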

How the results depend on the processing

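The alternatives left the direction of the called members as it was except for Dnajc2, whose change was 0.085 (adjusted p = 0.58) with the mean of all probe sets. Members higher numbered 5, against 8 with the mean of all probe sets and 11 with the fluidics run block. J-domain genes higher numbered 3, against 6 and 8 under these 2 settings. Of all genes, 41.4% passed with that mean and 52.8% with the run block, against 42.1% in the main fit. For the cytosolic chaperonin 1 subunit (Cct3) was higher without probe sets ending in s or x, and 1 rather than 4 lower after median centring or without the intensity trend. The median change of all members was -0.13 without the filter, -0.10 with the mean of all probe sets and -0.087 after median centring. For J-domain genes it was 0.031 with that mean, -0.068 after centring and 0.0086 with the run block. The run block gave -0.60 for Hsp70 and Hsp110, and the cytosolic chaperonin had -0.13 with it and -0.10 after centring. The cause of these shifts was not tested.

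Leaving out 1 array at a time gave 3 to 6 members higher and 15 to 27 lower, 1 to 4 J-domain genes higher and 6 to 11 lower, 1 to 5 cytosolic chaperonin subunits lower, 3 to 6 mitochondrial members lower and a median of all members of -0.21 to -0.15. Over all genes, 2647 were called without wild-type array 3 and 4716 without leukemia array 1, against 4089. The counts of lower genes for the heat-inducible, reticulum, mitochondrial and co-chaperone lists were rerun as an addition made after seeing the data.

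With the replicate number as a block 5 members were higher and 22 lower, and 1 cytosolic chaperonin subunit was lower. Of all genes, 36.7% passed with that block, against 42.1% without it. Same-numbered arrays correlated in their deviations at -0.07, 0.05 and 0.03, and arrays of unlike number at -0.12 to 0.11. This gives no sign that the numbers pair the samples, but so few values cannot exclude it. Leukemia arrays had the wider spread, which limits the detection of changes under 2-fold, and signals below the 40th percentile carry little order.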

Other observations

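The 12 dim members were Hspa1a, Hspa12a, Dnajb3, Dnajb5, Dnajb13, Dnajc5b, Hspb1, Hspb2, Hspb7, Hspb9, Hspbap1 and Hsf2. Besides Hspa1a, Dnajb3 was the 1 of these whose groups did not overlap, with a mean of 3.04 in leukemia and 3.62 in wild-type (difference -0.57, exact permutation p = 0.1).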
